A study of Sus scrofa with 10 samples.

Results

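The interferon response genes described here are those of a list of 39 names, in which RIGI stands under its older name DDX58 as well, so that 38 distinct genes were sought. All 38 were found among the 12378 genes of the pig table that carry a symbol, and none was dropped. They were measured in bulk RNA of right ventricular biopsies from 10 pigs. In 5 of these the label was CTEPH, short for chronic thromboembolic pulmonary hypertension, a disease of undissolved clots in the lung arteries that puts the right ventricle under pressure, and the other 5 were Sham controls. Each pig gave 1 library, and values are always given in the order s1, s3, s4, s5, s9 for CTEPH and s2, s6, s7, s8, s10 for Sham. Breed, sex, age, the time after the procedure and the surgery given to the Sham pigs are not stated in the labels.

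Interferons are cytokines that infected or stressed cells release. Type I interferons bind a receptor made of IFNAR1 and IFNAR2, whose kinases JAK1 and TYK2 activate STAT2. With IRF9 it takes part in a complex that enters the nucleus and switches on a large set of target genes, while interferon gamma acts through its own receptor and favours other targets, such as IRF1 and the chemokine CXCL9. The products of the targets sense viral nucleic acids, block viral replication, tag proteins with ISG15 and feed back on the pathway, and most tissues, the heart included, keep a low level of them without infection.

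The values are log2 expression values in which every library was brought to nearly 1 distribution, so a value compares 1 gene between pigs and not 1 gene with another. A difference of 1 is a factor of 2. Relative depth, from the whole counts behind the low values, ran from 0.724 to 1.57 over the libraries, without a gap between the groups (1.05 ± 0.317 for the 5 CTEPH pigs and 1.02 ± 0.320 for the 5 Sham pigs, mean ± SD). The 10 cardiomyocyte markers were all measured, with none at a count of 0 in any library.

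No interferon response gene was called different between CTEPH and Sham, and the pigs within each group differed widely. By limma, 0 of 38 genes passed an adjusted p of 0.05 (Benjamini-Hochberg over all genes) in either direction, where 4.62% of all genes passed, 2.83% higher and 1.79% lower in CTEPH. At an unadjusted p under 0.05 there was 1 gene, RSAD2, against 20.3% of all genes. The 2 groups overlapped in all 38 genes, whereas 6.57% of all genes had groups that did not overlap (3.7% with CTEPH higher and 2.87% with CTEPH lower). The CTEPH mean was below the Sham mean in 36 of the 38, against 53.6% of all genes, and the median difference, CTEPH minus Sham, was -0.41 for the 38 genes and -0.03 over all genes. The first of these was -0.24 without Sham library s8 and -0.69 without Sham library s2. The 38 genes varied together from pig to pig, so the 36 are not 36 separate observations.

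**Figure D1:**
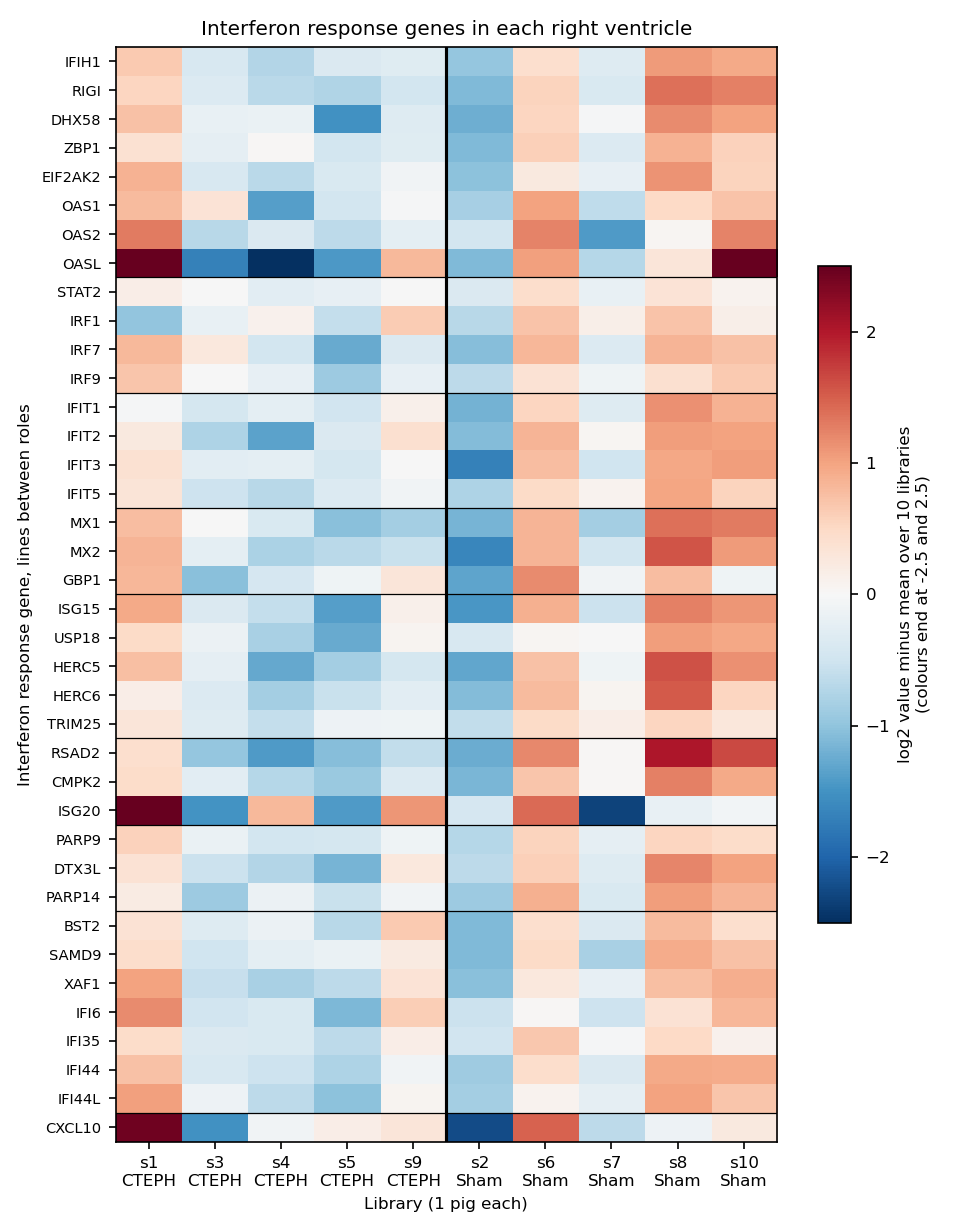
Colour shows how far each of 38 interferon response genes (rows, grouped by role) lay from its own average over 10 libraries, in log2 units (columns, CTEPH left and Sham right of the line). Columns s1, s6, s8 and s10 are red in nearly every row. Column s2 is blue in all 38 and CTEPH columns s3, s4 and s5 in nearly every row, so pigs of both groups lie toward each end.

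Most genes put the pigs in much the same order. With each gene set relative to its own average, the mean level over the 38 genes was, in log2 units, 0.74, -0.44, -0.61, -0.71 and 0.01 in the CTEPH libraries, and -0.99, 0.67, -0.35, 0.88 and 0.80 in the Sham libraries. Sham library s2 was thus the lowest of all 10, and Sham libraries s8, s10 and s6 and CTEPH library s1 the highest. In s6 all 38 genes were above their own mean and in s2 all 38 were below it. In s1, s8 and s10, 36 genes each were above, and in s3, s4 and s5 only 2, 3 and 1. The level of CTEPH library s9 was near the middle, with 16 genes above and 22 below. Library s8 held the highest value in 24 genes and s1 in 9, while s2 held the lowest in 23 and s5 in 8. The group means of this level were -0.20 for CTEPH (SD 0.59 over 5 pigs) and 0.20 for Sham (SD 0.83 over 5 pigs), a difference smaller than either SD.

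**Figure D2:**
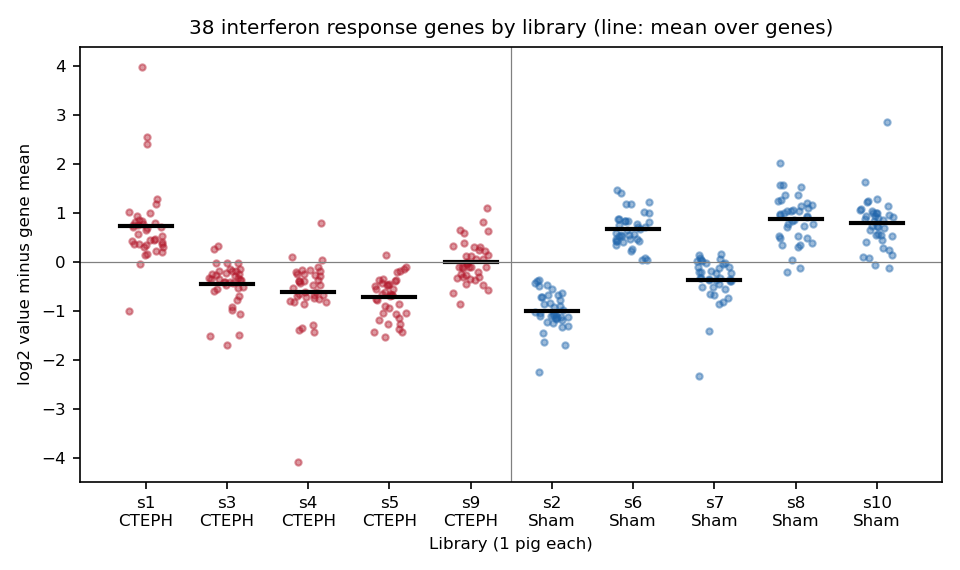
Each point is 1 of 38 interferon response genes in 1 library, in log2 units relative to that gene's average, and each line is the mean over the genes. The lines run from -0.71 to 0.74 in CTEPH and from -0.99 to 0.88 in Sham.

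RSAD2 encodes viperin, an enzyme that makes a chain-terminating nucleotide, and had the largest difference of the 38 genes. Its log2 values were 11.49, 10.12, 9.66, 10.03 and 10.46 in CTEPH and 9.85, 12.28, 11.10, 13.10 and 12.73 in Sham. Sham libraries s6, s8 and s10 lay above every CTEPH library, s2 lay among the low CTEPH values, and the groups overlapped. The difference was -1.46 ± 0.53 (± SE, 95% interval -2.62 to -0.31), with an adjusted p of 0.143 by limma and a two-sided exact permutation p of 0.0794. Without Sham library s2 it was -1.95 ± 0.41 and passed (adjusted p = 0.0269), and 17 of the 38 genes then had an unadjusted p under 0.05. Without any of the other 9 libraries the adjusted p of RSAD2 was between 0.0780 and 0.290. CMPK2, a mitochondrial nucleotide kinase next to RSAD2, was at 10.71, 9.98, 9.54, 9.32 and 9.91 in CTEPH and 9.11, 10.94, 10.27, 11.51 and 11.19 in Sham. It was high in the same 3 Sham pigs and in s1. ISG20, an exonuclease that degrades RNA, was read from few counts, 59, 3, 30, 4 and 16 in CTEPH and 8, 43, 1, 7 and 8 in Sham. Its highest library was s1 and its lowest s7, and it was one of the 2 genes with a CTEPH mean above the Sham mean (difference 0.63 ± 0.83, SE). Without s1 that difference was 0.066.

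The sensors of foreign nucleic acid followed the same pigs, with all 8 differences below 0 and none called. OAS1 makes the oligoadenylate that activates RNase L, and its log2 values were 11.83, 11.39, 9.68, 10.58 and 11.02 in CTEPH and 10.21, 12.06, 10.41, 11.55 and 11.76 in Sham. Its relative OAS2 was at 14.09, 12.10, 12.43, 12.14 and 12.56 and 12.34, 14.03, 11.39, 12.85 and 14.03. In OAS2 the libraries s1, s6 and s10 stood together at the top and every other library lay at 12.85 or lower, with s7 the lowest. OASL, an oligoadenylate synthetase relative without that activity in humans, varied most of all 38 genes. Its counts were 130, 2, 0, 3 and 10 in CTEPH and 4, 26, 3, 8 and 49 in Sham. The library with no OASL count, s4, was the deepest of the 10 (relative depth 1.57), and a count of 0 allows up to 3. The RNA helicase sensors IFIH1 (MDA5), RIGI and DHX58 (LGP2), the kinase EIF2AK2 (PKR) and ZBP1, which binds left-handed nucleic acid, had differences of -0.46, -0.68, -0.58, -0.28 and -0.23. Library s8 was the highest in each of these 5.

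Of the 4 transcription factors, 3 followed the other genes and IRF1 did not. STAT2, of the complex that binds interferon targets, was at 11.23, 11.06, 10.80, 10.87 and 11.07 in CTEPH and 10.71, 11.51, 10.90, 11.42 and 11.16 in Sham. It had the smallest spread of the 38 genes, with a 1.35-fold range over CTEPH and a 1.75-fold range over Sham. IRF9, the DNA-binding part of that complex, was at 11.69, 10.98, 10.79, 10.09 and 10.79 and 10.33, 11.35, 10.88, 11.39 and 11.65. IRF7, which drives interferon alpha genes and is itself a target, was at 9.63, 9.09, 8.36, 7.56 and 8.46 and 7.76, 9.64, 8.48, 9.66 and 9.56. Both were high in s1, s6, s8 and s10 and lowest in s5. IRF1, a main target of interferon gamma, was at 9.26, 10.07, 10.35, 9.65 and 10.89 in CTEPH and 9.55, 10.97, 10.41, 10.97 and 10.41 in Sham. Its lowest library was s1, which was among the highest for IRF7 and IRF9, and its CTEPH library s9 came close to the highest Sham values.

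The IFIT genes, whose products bind viral RNA or translation factors, had a larger SD in Sham than in CTEPH over all 10 pigs. Without Sham library s2 this held for IFIT1 and IFIT3 but turned for IFIT2 (0.470 in Sham, 0.719 in CTEPH) and IFIT5 (0.365 and 0.396). IFIT1 was at 11.07, 10.66, 10.86, 10.62 and 11.22 in CTEPH and 9.92, 11.64, 10.77, 12.24 and 11.97 in Sham, a 1.51-fold range in CTEPH and a 4.99-fold range in Sham. The 3 high Sham libraries lay above every CTEPH library and s2 below every one. IFIT2 was at 9.84, 8.82, 8.25, 9.24 and 9.99 and 8.52, 10.45, 9.64, 10.65 and 10.60, with s4 the lowest pig. IFIT5 was at 10.87, 10.03, 9.86, 10.21 and 10.47 and 9.79, 11.03, 10.64, 11.53 and 11.12. For IFIT3, the partner of IFIT1, the Sham range was 6.61-fold and the CTEPH range 1.75-fold.

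The dynamin-like GTPases varied in the same way. MX1, which blocks influenza and other viruses in the cytoplasm or nucleus, was at 11.23, 10.47, 10.08, 9.43 and 9.63 in CTEPH and 9.31, 11.32, 9.62, 11.84 and 11.77 in Sham, and its neighbour MX2 was at 12.29, 11.20, 10.65, 10.77 and 10.88 and 9.80, 12.29, 10.99, 13.02 and 12.51. In both genes s6, s8 and s10 were above the highest CTEPH library, s1, and s2 was the lowest of all 10. The range of MX2 within Sham was 9.27-fold. The difference was -0.61 ± 0.51 for MX1 and -0.56 ± 0.52 for MX2 (± SE), with limma's adjusted p at 0.547 and 0.596. GBP1, a guanylate-binding protein more responsive to interferon gamma, differed by -0.17 ± 0.43, and its highest library was s6.

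ISG15 encodes a ubiquitin-like protein that is attached to other proteins, and its own spread was among the widest. Its values were 11.57, 10.27, 10.03, 9.25 and 10.76 in CTEPH and 9.18, 11.52, 10.08, 11.87 and 11.72 in Sham, a 4.97-fold range in CTEPH and a 6.49-fold range in Sham, against a difference of -0.50 ± 0.52 (± SE), for which limma gave an adjusted p of 0.644. USP18, which removes ISG15 and dampens receptor signalling, was at 10.08, 9.45, 8.77, 8.32 and 9.65 and 9.20, 9.65, 9.58, 10.64 and 10.56. In Sham, s8 and s10 were the high libraries of USP18, and s6 was close to s7. HERC5, the main ligase that attaches ISG15 in humans, was at 10.35, 9.37, 8.31, 8.74 and 9.16 and 8.30, 10.32, 9.50, 11.18 and 10.75. The neighbouring HERC6 was at 12.41, 11.90, 11.40, 11.70 and 11.99 and 11.17, 13.04, 12.31, 13.79 and 12.80, with 3 Sham libraries above every CTEPH library. TRIM25, a ligase that assists RIGI, differed by -0.34 ± 0.23.

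DTX3L, the ubiquitin ligase that works with PARP9, was at 9.41, 8.50, 8.30, 7.87 and 9.30 in CTEPH and 8.38, 9.64, 8.72, 10.26 and 10.05 in Sham, again with s6, s8 and s10 above every CTEPH library. PARP9 and PARP14, of the same family of ADP-ribosylation genes, differed by -0.24 ± 0.27 and -0.60 ± 0.36. The other effectors BST2 (tetherin), SAMD9, XAF1, IFI6, IFI35, IFI44 and IFI44L had differences of -0.42 (IFI44) to -0.06 (BST2). In XAF1, IFI6 and IFI44L the highest of all 10 libraries was CTEPH library s1, in IFI35 it was s6, and in the other 3 it was s8.

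CXCL10, a chemokine that draws T cells and responds to both kinds of interferon, was at 12.85, 8.92, 10.33, 10.59 and 10.74 in CTEPH and 8.19, 11.90, 9.77, 10.31 and 10.68 in Sham. CTEPH library s1 was the highest, Sham library s6 came next and s2 was the lowest, a 15.3-fold range in CTEPH and a 13.1-fold range in Sham. Its difference was 0.52 ± 0.69 (± SE, 95% interval -0.98 to 2.01), with an adjusted p of 0.727 by limma, the other positive one besides ISG20. Without s1 the sign turned, to -0.026. At matched expression its residual SD was 5.10 times the fitted trend, the highest such ratio among the 38 genes.

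**Figure D3:**
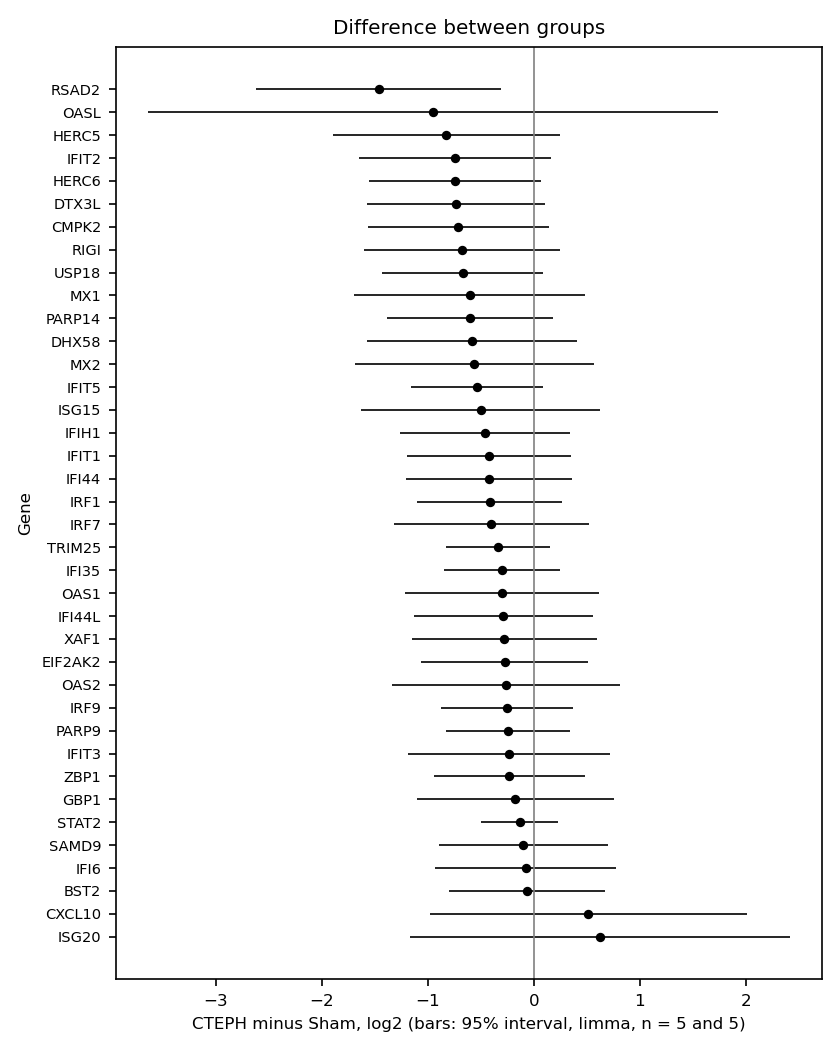
Points are the difference CTEPH minus Sham on the log2 scale for each of 38 genes and bars its 95% interval from limma (n = 5 and 5). Only the interval of RSAD2 leaves out 0 before adjustment, and most intervals reach below -1.

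The intervals show what 5 pigs against 5 could not settle. The median 95% interval ran from -1.20 to 0.39. In 28 of the 38 genes the interval reached below -1, that is, past a fall by a factor of 2, and in 3 it reached above 1. The difference between the groups was smaller than the range within Sham, and smaller than the range within CTEPH, in all 38 genes. Group accounted for a median of 7.71% of a gene's variance in the 38 genes and 13.5% over all genes.

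The spread within groups was wide for genes of this expression. The residual SD, the spread around the group means, had a median of 0.77 over the 38 genes and 0.35 over all genes. Of the 38, 34 were above the 75th percentile of all genes, with a median percentile of 89.2, and all 38 were above the trend that limma fits against expression, by a median factor of 2.69 (51.8% of all genes were above it). OASL was 2.74 times and RSAD2 4.10 times above the trend, and STAT2 was at it, with 1.04. The SD was larger in Sham than in CTEPH in 29 of the 38 genes, while this held for 30.4% of all genes. That count depended on Sham library s2: without it, 15 of the 38 genes had the larger SD in Sham, against 27.2% of all genes. Without each other library the count was 27 to 35, against 26.9% to 37.7% of all genes.

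**Figure D4:**
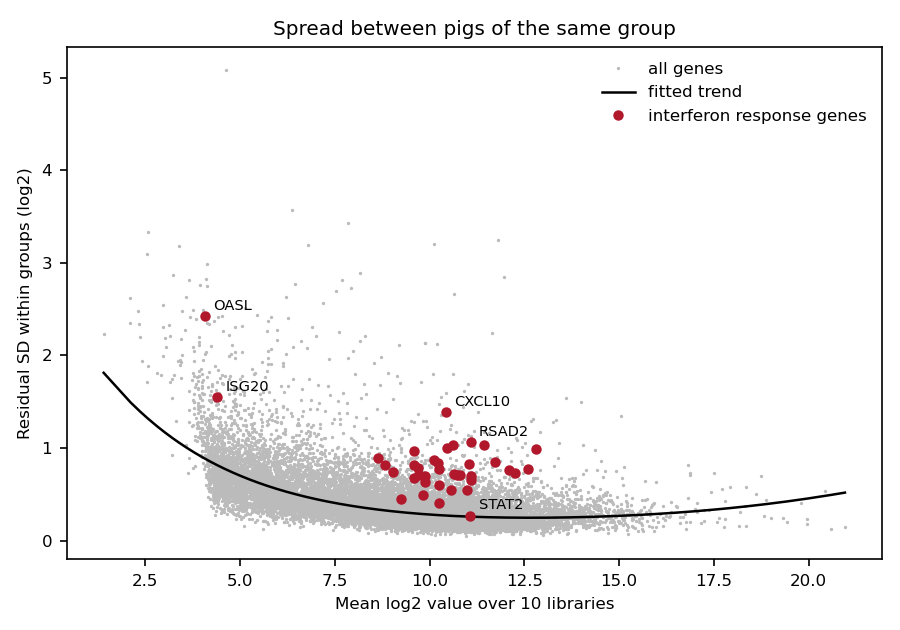
Each point is a gene, with its mean log2 value over 10 libraries and its residual SD within groups. Red points are the 38 interferon response genes, grey points all genes and the line the fitted trend, and all 38 red points lie above the line.

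The genes varied together. Likeness was measured as Pearson's r over the 10 libraries after each gene's group means were removed, as a description without a test, since all genes share the same 10 libraries. Over the 703 pairs of the 38 genes the median r was 0.83, and 56.9% of pairs exceeded 0.8. For pairs of 1 of the 38 with 1 of all other genes the median was 0.01, and 0.901% exceeded 0.8. A single component held 79.9% of the variance of the 38 genes within groups when each gene counted equally. Against the mean of the other 37, the highest r were those of IFI44 (0.99), PARP9 (0.98), ISG15 (0.98) and RSAD2 (0.97). The lowest were IRF1 (0.32), ISG20 (0.60) and OASL (0.73), the last 2 of which rest on few counts. The median pairwise r was between 0.75 and 0.85 when any 1 library was left out.

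Several of the 38 genes are neighbours in the pig genome (RefSeq genes of Sscrofa11.1, counted from 1). IFIT2, IFIT3, IFIT1 and IFIT5 stand in a row on chromosome 14, from 101193421 to 101266105. OAS2 (38827667 to 38847697) and OAS1 (38851083 to 38867427) lie elsewhere on that chromosome. MX2 and MX1 share chromosome 13 (204798633 to 204868927) with PARP14, DTX3L and PARP9 (137809499 to 138000862). RSAD2 (128880853 to 128897809) and CMPK2 (128903395 to 128917873) are on chromosome 3, HERC5 and HERC6 on chromosome 8 (130532256 to 130665591) and IFI44 and IFI44L on chromosome 6 (134634679 to 134679212). The 14 pairs within 100000 bases of each other had a median r of 0.90, from 0.74 for OAS1 with OAS2 to 0.97 for RSAD2 with CMPK2, and the other pairs a median of 0.82. Neighbours can share reads where their spans overlap: DTX3L and PARP9 overlap by 395 bases, and XAF1 lies within the span of FBXO39. IRF1 lies wholly within the span of SLC22A5 and CXCL10 within that of ART3, and RIGI overlaps ACO1 by 38319 bases. IFIT1, IFIT2 and IFIT3 lie within the annotated span of LIPA. Whole spans were compared and exons were not, and no source used here gives the strand setting of the counting. Whether such pairs share reads was therefore not settled. The assignment of reads in near-identical stretches of IFIT, MX and OAS relatives is uncertain as well.

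Upstream, most receptors and kinases did not follow the pigs in which the targets were high. Of 9 such genes 1 was called higher in CTEPH and 0 lower, against 2.83% and 1.79% of all genes, and 4 had an unadjusted p under 0.05, against 20.3% of all genes. Besides IFNGR2 and TYK2 these were IFNGR1 (0.47 ± 0.19) and IL10RB (0.42 ± 0.19), named after their values were seen. Over the 9 genes the median r with the 38 genes was -0.22, and 7 had an r below 0. The called gene was IFNGR2, a chain of the interferon gamma receptor, at 10.85, 11.01, 11.03, 11.24 and 10.87 in CTEPH and 10.60, 10.62, 10.35, 10.43 and 10.47 in Sham. Every CTEPH library exceeded every Sham library, and the difference was 0.51 ± 0.12 (± SE), with an adjusted p of 0.0353 by limma. It passed only without s1 or s9 among the 10 refits that left out a single pig, in which limma's adjusted p ran from 0.0267 to 0.0906 for IFNGR2, and it missed the threshold without the intensity trend (0.0554). TYK2 differed by -0.64 ± 0.21 and missed the threshold (adjusted p = 0.100, limma with Benjamini-Hochberg). It passed in 1 of the 10 refits, with limma's adjusted p at 0.0204. Its r with the 38 genes was 0.67, the highest of the 9. The 1 measured interferon ligand, IFN-ALPHA-8, was highest in s2, the library lowest in the targets (7.11, against 5.28 to 5.91 in the others).

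Of the other STAT and IRF genes, 0 of 9 passed limma's adjusted threshold and 0 its unadjusted one, with IRF5 at 0.44 ± 0.28. Among 15 nucleic acid sensors and adaptors 0 passed, also unadjusted, and the leading genes were MAVS (-0.36 ± 0.18), the adaptor of the RNA helicases, and TRAF3 (0.40 ± 0.20). The DNA sensor CGAS and the RNA sensor TLR3, themselves interferon targets, were the 2 of the 15 with r above 0.8. Of 14 inhibitors of the pathway 0 passed and 4 had an unadjusted p under 0.05, where 20.3% of all genes did. They were led by NLRC5 (-0.77 ± 0.23, adjusted p = 0.0748), which also activates MHC class I genes, and PIAS4 (-0.44 ± 0.15, adjusted p = 0.123, limma with Benjamini-Hochberg). NLRC5 passed in 1 of the refits that left out a single pig (adjusted p = 0.0118, limma).

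Targets outside the 38 followed the same pigs less closely. Among 41 further targets of type I interferon 0 passed, while 9 were under 0.05 before adjustment, a share near the 20.3% of all genes. A negative difference was found in 33, against 53.6% of all genes, with a median of -0.30. MLKL (0.55 ± 0.16, adjusted p = 0.0674) and TMEM140 (-0.77 ± 0.23, adjusted p = 0.0823, limma with Benjamini-Hochberg) had the smallest p. MLKL passed in 1 of the refits that left out a single pig (adjusted p = 0.0435, limma). The median r of this list was 0.70. Among 25 genes of interferon gamma and antigen presentation 0 passed, 0 had an unadjusted p under 0.05, the median difference was -0.05 and the median r 0.55. The leading genes were PSME1 (0.32 ± 0.17) and TAPBP (-0.22 ± 0.13). The level of this list was -0.03 in s1, 0.55 in s6, 0.27 in s8 and 0.05 in s10, so that s1 and s10, high in the 38 genes, were near the mean here. CXCL9 was at 8.64 in s1 and 10.93 in s6, while CXCL10 was at 12.85 and 11.90 in these libraries.

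**Figure D5:**
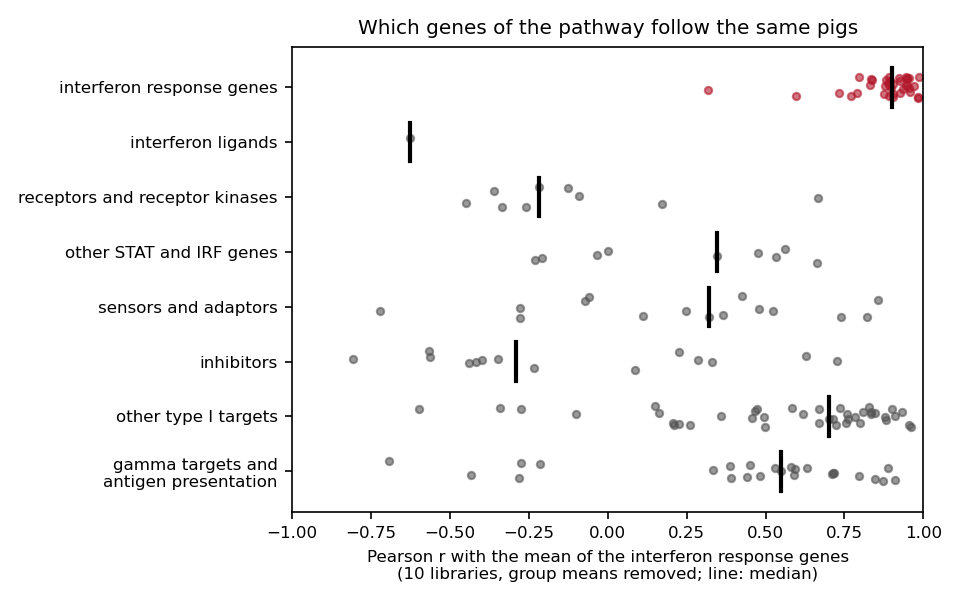
Each point is a gene, placed by its r with the mean of the interferon response genes over 10 libraries after group means were removed, and lines are medians. The 38 genes (red, each against the other 37) have a median of 0.90, receptors and kinases one of -0.22 and further type I targets one of 0.70.

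The 12 other genes with a symbol that were most alike to the mean of the 38 were FBXO39 (r = 0.97), PARP12 (0.96), VCF1 (0.96), ZNF251 (0.95), TRIM21 (0.95), ETV7 (0.95), CFAP418 (0.95), ZNFX1 (0.93), DDX60 (0.93), ISG12(A) (0.92), SP140 (0.92) and UBE2L6 (0.91). Of these, PARP12, TRIM21, ZNFX1 and UBE2L6, the enzyme that passes ISG15 to its ligases, were on the list of further targets. In all, 28 other genes (0.179% of them) had an r above 0.9, of which 16 had a symbol, and 19 had an r under -0.9. The likeness of FBXO39 is given with the limit that its span holds XAF1. The difference between the groups in these 12 genes lay between -0.71 and 0.08, and none passed (adjusted p of at least 0.173, limma with Benjamini-Hochberg).

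Levels of other cell types were compared across the same pigs, and those of 4 marker lists, of immune and endothelial cells, are given here. Macrophage and monocyte markers (10 measured) had a level of -0.28 to 0.71 in CTEPH and -0.58 to 0.29 in Sham. The highest was s1 and the lowest was s8, both of which were high in the 38 genes. T and NK lymphocyte markers (11 measured) ran from -0.17 to 0.42 in CTEPH and from -0.40 to 0.64 in Sham, with s6 and s9 the highest, and dendritic cell markers (4 measured) from -0.58 to 0.26 and from -0.73 to 0.78. Endothelial markers (9 measured) ran from -0.39 to -0.05 in CTEPH and from -0.15 to 0.52 in Sham, with s8 and s6 the highest. Their difference was negative in all 9, where the CTEPH mean was below the Sham mean in 53.6% of all genes. Of the 9, 1 gene, TEK, was called lower, against 1.79% of all genes. Macrophage and monocyte markers mostly went the other way, with a negative difference in 1 of 10 and a median of 0.38. The difference was negative in 5 of 11 T and NK lymphocyte markers and 3 of 4 dendritic cell markers. In these 3 lists 0 markers were called. In these 4 lists no marker was at a count of 0 in any library and none had an r above 0.8 with the 38 genes. The median and highest r were 0.46 and 0.63 for macrophages and monocytes and 0.31 and 0.72 for T and NK lymphocytes. They were 0.22 and 0.71 for dendritic cells and 0.36 and 0.61 for endothelial cells. Markers of cardiomyocytes, atrial cells, fibroblasts, B and plasma cells, neutrophils, smooth muscle and pericytes, and erythrocytes were also measured. The median r of these lists ran from -0.52 (smooth muscle and pericyte) to 0.40 (erythrocyte, 2 measured). Of the cardiomyocyte markers 2 of 10 were called higher, and of the smooth muscle and pericyte markers 1 of 6, against 2.83% of all genes. In bulk tissue, fewer cells of a type and less RNA per cell cannot be told apart, and the part of these cell types in the levels of the 38 genes was not tested. The mitochondrially encoded genes were highest in s8 (0.86) and s2 (0.81), the libraries with the highest and the lowest level of the 38 genes. ATP8 stood apart there, at 16.44 in s2 and 15.99 in s8 against 9.94 to 11.35 in the others, and without it, a setting chosen after seeing the data, the levels were 0.54 in s8 and 0.45 in s2. All 12 of these genes had a negative difference, against 53.6% of all genes, with a median of -0.41. Of the 12, 0 were called, where 4.62% of all genes were. Relative depth was 0.975, 1.51, 0.815 and 0.844 in s1, s6, s8 and s10 and 1.18 in s2, and its part was not tested.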

How the data were processed

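Right ventricular RNA of 10 pigs, 5 CTEPH and 5 Sham by their labels, was analysed from 1 table of deposited log2 values, which the authors normalized between libraries so that each has nearly the same distribution. Per the submitters' processing notes, featureCounts, edgeR 3.36.0, limma 3.50.0, FastQC 0.11.5, cutadapt 1.15 and bcl2fastq 2.18.12 were used, with the build Sscrofa11.1. For the aligner, annotation, strand setting and low-expression filter, details were not given in the sources used here. Both polyA RNA and a stranded total RNA kit stand in the labels. Below 9.48 the deposited log2 values are quantile means of log2 of whole counts with 0.5 added, up to a constant: 52.8% of values were read back as counts (tolerance 1e-06). Over 5703 genes, relative depth is the median of each count divided by that gene's geometric mean. Ensembl identifiers gave a symbol for 12378 genes.

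CTEPH and Sham were compared by limma 3.58.1 (R 4.3.3; moderated variances with an intensity trend, two-sided, no covariate, Benjamini-Hochberg over all genes of the table), after a test on simulated data, and single genes also with the exact permutation test over 252 assignments, whose smallest p is 0.00794. Quantile normalization hides a change shared by most genes. The genes and lists were chosen with earlier results of these data known. Every value is printed for 21 genes: the 8 with the smallest p, the 8 with the largest residual SD, those with an outlying library and 10 examples of the roles. Of each pathway list the called genes and the 2 with the smallest p are named, apart from a result not reported here, and CXCL9, CGAS and TLR3 were named after their values were seen. Alternatives left out each library in turn, dropped the trend or the lowest genes, used robust or library-weighted fits, set medians equal, or ran voom on recovered counts. Promoter sequences were not analysed here.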

Additional observations from a re-analysis of the deposited data

Results flagged for a closer look

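OAS2 in CTEPH library s1 was at 14.09, and its gap to the next CTEPH library was 0.770 of the whole CTEPH range, above the limit of 0.710 for 5 values. The Sham libraries s6 and s10 held like values of 14.03 each. With 76 groups of 5 values examined, chance alone flags about 1 in 20, and 1 was flagged.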

How the results depend on the processing

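The count of interferon response genes called higher was 0 under every alternative, and the count called lower was 0 in every fit but that without Sham library s2, where it was 1, RSAD2. Leaving out 1 library moved the count of all called genes from 723 to between 401 and 961. Library weights gave 1269 and voom on recovered counts, which tested 6763 genes and 2 of the 38, gave 308. The number of the 38 with an unadjusted p under 0.05 was 1 in the fit as reported, 6 with library weights and 0 to 17 without 1 library. The matching share of all genes was counted only for the fit as reported (20.3%). Without 1 library, the median difference of the 38 was -0.69 to -0.24. Of 646 values of single genes under alternatives, 625 were counted as unchanged. For refits this meant the same direction and side of the threshold. For the permutation test only its unadjusted p against 0.05 was compared, and for differences of group medians only the direction. The 20 that changed sign came from leaving out 1 library, in 7 genes: CXCL10 (-0.026 to 0.96), BST2 (-0.34 to 0.13), GBP1 (-0.53 to 0.10), IFI6 (-0.38 to 0.20), SAMD9 (-0.39 to 0.13), OAS1 (-0.545 to 0.0078) and OAS2 (-0.65 to 0.016). IFN-ALPHA-8 did so as well (-0.34 to 0.11). The cause was not tested. No paired analysis was possible because each library number occurs once.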

Other observations

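Among the 28 other genes with an r above 0.9 to the mean of the 38 interferon response genes, 12 had no symbol and were not named here.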
